A study of Mus musculus with 21 samples.

Results

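Hox genes encode homeodomain transcription factors that give cells along the body axis and the limb a positional identity. They were taken here as every gene of the count table whose symbol is Hoxa, Hoxb, Hoxc or Hoxd followed by digits alone, which gave 39 of 55341 genes: 11 in the Hoxa cluster, 10 in Hoxb, 9 in Hoxc and 9 in Hoxd. The cells were fibro-adipogenic progenitors (FAPs), the Pdgfra-positive stromal cells of skeletal muscle that can turn into fibroblasts or fat cells, taken from adult mice. Of the 21 samples, 5 are RNA libraries, 6 are libraries of H3K9me2 (a histone mark of silent chromatin) and 2 are libraries of LaminB1 (part of the lamina under the nuclear envelope), and the 8 inputs were not used here. Mice labelled Prdm16 carried Prdm16Flox/Flox::PdgfrαCre-ERT/+, floxed Prdm16 alleles with a tamoxifen-inducible Cre under the Pdgfrα promoter. Mice labelled WT carried Prdm16Flox/Flox::Pdgfrα+/+, so the controls held the same floxed alleles without the Cre. Both genotypes received tamoxifen for 5 days and cardiotoxin (a toxin that injures muscle) 7 days later, and FAPs were sorted 5 days after the injury and grown for 4 to 5 days. The labels do not name the muscles or say whether they came from the forelimb or the hindlimb, and they do not say whether replicates were separate animals, so p-values measure the spread between libraries only.

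The mammalian Hox genes lie in 4 clusters on different chromosomes, and genes with the same number in different clusters (paralogs) descend from one ancestral gene. Their order along the chromosome follows their order of expression from head to tail, and within the limb the highest-numbered genes mark the hand or foot while their lower-numbered neighbours mark the upper segments. Fibroblasts and other stromal cells of the adult body keep much of this pattern in culture, which makes Hox transcripts a record of where a cell came from. Polycomb proteins keep unused Hox genes silent through H3K27 methylation, a mark other than the H3K9 methylation measured in this series, and trithorax proteins keep used ones active.

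Prdm16, the targeted gene, was counted 171, 94 and 59 times in the WT-labelled replicates 1, 2 and 3, and 91 and 86 times in the Prdm16-labelled replicates 1 and 2. The genotypes overlapped, with a log2 fold change of Prdm16 over WT of 0.13 (SE 0.47) and an adjusted p of 0.9996 by edgeR's quasi-likelihood test. Counts over a whole gene do not show the loss of a floxed exon, and which part is deleted is not given in the labels, so this neither checks nor contradicts the labels. The p-values in the authors' deposited table matched a comparison of the labelled groups within 1% for 167 of 14522 genes (1.15%). They matched a comparison in which WT replicate 3 and Prdm16 replicate 2 form the Prdm16 group for 14522 of 14522 (100%). Results below follow the labels, and for the Hox genes and limb-type factors given by library, values that rest on single libraries are also given without them. Prdm16 replicate 2 stood apart in Xist, the transcript of the inactive X chromosome, at 15 counts against 3483 to 4652 elsewhere, and in 4 Y-linked genes, at 1322 counts against 0 to 4. It was also the shallowest library, with 5839587 counts against 7053114 to 10657791 in the other 4. The 12 FAP markers summed to 4553 CPM (edgeR's counts scaled to the TMM-adjusted size of each library) in WT replicate 3 and to 7202 to 8015 CPM in the other libraries. The 8 myogenic markers were at their highest in that library, at 370.1 CPM. They summed to 286.9 and 299.8 CPM in Prdm16 replicates 1 and 2 and to 112.2 and 138.6 CPM in WT replicates 1 and 2. Endothelial markers (4 genes) summed to 2.69 to 6.89 CPM with Tie1 at 0, leukocyte markers (4 genes) to 4.23 to 5.51 CPM with Adgre1 at 0, and Schwann cell markers (3 genes) to 0.888 to 2.10 CPM. Pericyte markers (3 genes) summed to 74.96 to 103.7 CPM, and tenocyte markers (3 genes) to 12.33 to 15.29 CPM in 4 libraries and 27.71 CPM in Prdm16 replicate 2. In Prdm16 replicate 2 the tenocyte markers Mkx (23.3 CPM) and Tnmd (3.73 CPM) were at their highest, whereas Scx was at its lowest (0.710 CPM, 4 counts).

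Cultured FAPs carried a Hox profile centred on paralog groups 9 to 11 of the Hoxa and Hoxc clusters. Counts on all Hox genes summed to 171, 175 and 130 CPM in WT replicates 1 to 3 and to 149 and 147 CPM in Prdm16 replicates 1 and 2. Paralog groups 9 to 11 took 63.2% to 69.2% of these counts, groups 5 to 8 took 21.2% to 25.9%, groups 1 to 4 took 4.85% to 9.49% and groups 12 to 13 took 2.04% to 3.04%. The Hoxa cluster supplied 38.4% to 43.8% of the counts, Hoxc 39.4% to 52.8%, Hoxd 5.57% to 16.9% and Hoxb 0% to 3.31%. Between 25 and 34 Hox genes had a count in each library, and Hoxb1, Hoxb8 and Hoxd1 had none in any library, which allows at most 0.280 to 0.533 CPM (3 counts) per library. Of the 39 genes, 19 passed edgeR's filter on low counts: 7 of 11 in Hoxa, 1 of 10 in Hoxb, 8 of 9 in Hoxc and 3 of 9 in Hoxd. The other 20 had at most 17 counts in any library. In bulk RNA, fewer cells that transcribe a gene and less RNA per cell cannot be told apart.

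**Figure D1:**
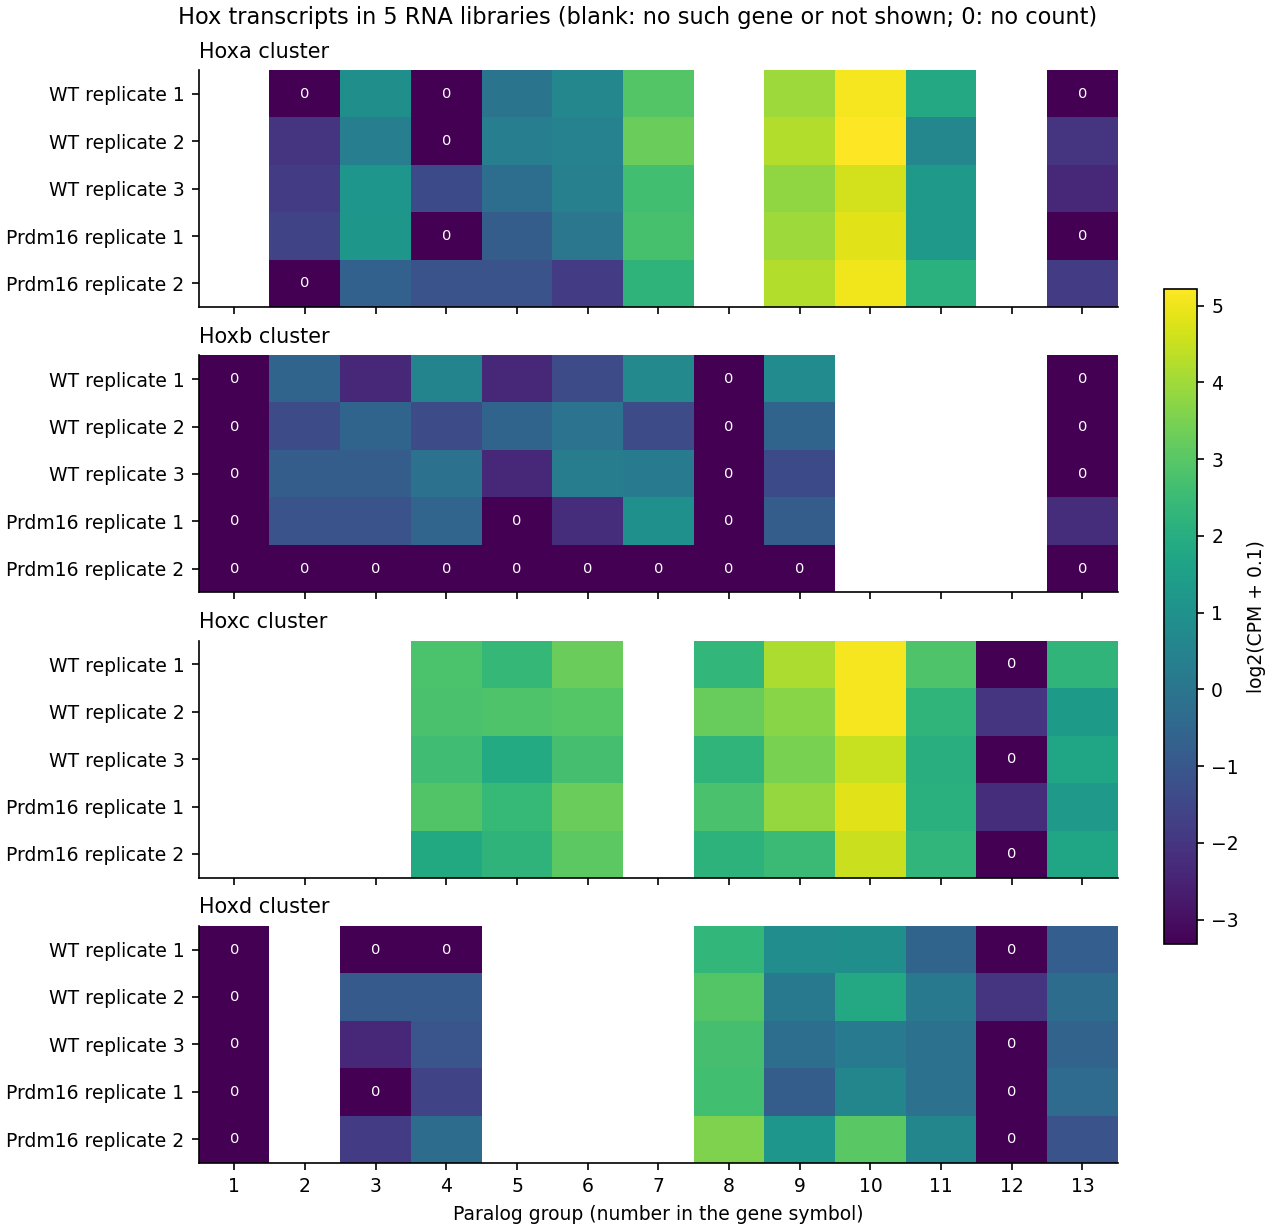
Level of each Hox gene in each RNA library, as log2(CPM + 0.1) by colour, with the paralog group on the horizontal axis and 1 panel per cluster. Blank fields are paralogs that the cluster does not have or that are not shown, and fields marked 0 had no count. Hoxa9, Hoxa10, Hoxc9 and Hoxc10 are the brightest in most libraries, and the Hoxb row of Prdm16 replicate 2 is at 0 throughout.

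To compare levels between genes, CPM were divided by the length of the gene from start to end, introns included, since exon lengths were not given. On this scale Hoxc10 stood highest, with a mean of 5.61 CPM per kb over the 5 libraries and a range of 4.44 to 6.77. Hoxa9 followed at 3.86 (3.23 to 4.43) and Hoxa10 at 3.27 (2.58 to 3.84), whose ranges overlapped each other, and both lay below Hoxc10 in each library. Hoxa7 (2.34), Hoxc11 (2.29) and Hoxd8 (2.20) came next with overlapping ranges, then Hoxc9 (1.66), Hoxc8 (1.62) and Hoxc5 (1.5). No other Hox gene averaged above 0.746 CPM per kb, the mean of Hoxa11. This order depends on the span. Before the division, Hoxc6 (mean 8.28 CPM, span 13.7 kb) and Hoxc4 (6.11 CPM, 18.8 kb) were above Hoxc11 (4.99 CPM, 2.18 kb). The most distal genes were low: Hoxc13 averaged 0.413 CPM per kb and Hoxd13 0.167 CPM per kb, and Hoxa13, which marks hand and foot, had 0 or 1 count in each library.

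The windows before the transcription starts of these genes differ in sequence. RefSeq (GRCm38.p6) gave 24 promoter windows for 22 of the 39 genes, each from 250 bases before to 50 bases after a start. In Hoxc only Hoxc4 had a window, and in Hoxb only Hoxb1, Hoxb4 and Hoxb8. The abundant Hoxc9, Hoxc10 and Hoxc11 are thus not covered. The 24 windows had a median of 14.5 CpG dinucleotides (range 4 to 45) against 7.0 over all 32841 windows. Of the 24, 12 had an observed to expected CpG ratio over 0.6, a trait of 35.8% of all windows. The 4 windows printed here are those of 2 of the most abundant genes (Hoxa9 and Hoxa10), of the gene with the largest positive log2 fold change (Hoxd10) and of a Hoxb gene with no count in Prdm16 replicate 2 (Hoxb4). Each shows the 250 bases before the start, 5′ to 3′ on the gene's strand, with CpG in capitals.
Hoxa9, chr6:52227371-52227620, minus strand: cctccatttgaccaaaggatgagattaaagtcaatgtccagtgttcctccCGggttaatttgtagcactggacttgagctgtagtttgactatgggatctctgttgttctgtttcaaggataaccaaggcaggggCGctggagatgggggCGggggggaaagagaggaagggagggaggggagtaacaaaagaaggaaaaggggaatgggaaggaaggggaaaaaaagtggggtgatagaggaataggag
Hoxa10, chr6:52240855-52241104, minus strand: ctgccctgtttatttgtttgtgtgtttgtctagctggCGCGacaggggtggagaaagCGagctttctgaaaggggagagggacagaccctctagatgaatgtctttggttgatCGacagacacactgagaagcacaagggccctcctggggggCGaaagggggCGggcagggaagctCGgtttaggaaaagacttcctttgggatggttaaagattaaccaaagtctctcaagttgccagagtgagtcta
Hoxd10, chr2:74691641-74691890, plus strand: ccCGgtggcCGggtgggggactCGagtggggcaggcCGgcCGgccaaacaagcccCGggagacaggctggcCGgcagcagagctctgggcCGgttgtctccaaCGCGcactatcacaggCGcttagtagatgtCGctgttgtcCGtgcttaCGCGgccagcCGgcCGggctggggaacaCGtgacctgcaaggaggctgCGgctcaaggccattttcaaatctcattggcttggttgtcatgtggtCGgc
Hoxb4, chr11:96318017-96318266, plus strand: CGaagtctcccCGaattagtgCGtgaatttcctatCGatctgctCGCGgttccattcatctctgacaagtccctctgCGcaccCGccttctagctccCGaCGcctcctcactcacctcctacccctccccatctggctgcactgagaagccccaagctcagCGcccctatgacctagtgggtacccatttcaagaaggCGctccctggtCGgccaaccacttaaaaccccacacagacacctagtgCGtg
These stretches of Hoxa9, Hoxa10, Hoxd10 and Hoxb4 hold 3, 7, 20 and 14 CpG. Over the full windows of 300 bases, that of a second start of Hoxa10 holds 21 CpG against 12 at the first. The window of the barely counted Hoxd4 holds 4 CpG, as does that of Hoxa9. TGATTNAT, a motif of Hox proteins bound with TALE partners, was found on either strand in 2 of the 24 windows (8.33%; Hoxd11 and Hoxa2) and in 3.22% of all windows. CCATAAA, a motif of posterior Hox and Cdx proteins, was found in 1 (4.17%; Hoxd4) and in 2.75% of all windows. TAAT, the homeodomain core, was found in 19 (79.2%) and in 58.0% of all windows.  A match of letters is a description of the window and not a binding site.

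No Hox gene passed the test between genotypes. In edgeR's quasi-likelihood fit of 15240 genes, 0 of the 19 tested Hox genes had an adjusted p under 0.05, where 0.0% of all tested genes had one. At an unadjusted p under 0.05 there were 0 of 19, against 378 of all tested genes (2.48%). DESeq2 and limma-voom also called 0 Hox genes, and over all genes they called 1 of 32193 and 0 of 15240. Among the tested Hox genes 7 had a positive and 12 a negative log2 fold change of Prdm16 over WT, with a median of -0.11 against 0.00053 over all tested genes. Values ran from -1.12 (Hoxa6) to 1.18 (Hoxd10), and 17 of 19 lay within 0.5 of 0. Standard errors ran from 0.253 to 1.10. The 2 genotypes did not overlap for 1 of 19 genes (5.26%), Hoxa6, against 17.8% of all tested genes. Of all tested genes, 8.83% lay above every WT library and 8.96% below.

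**Figure D2:**
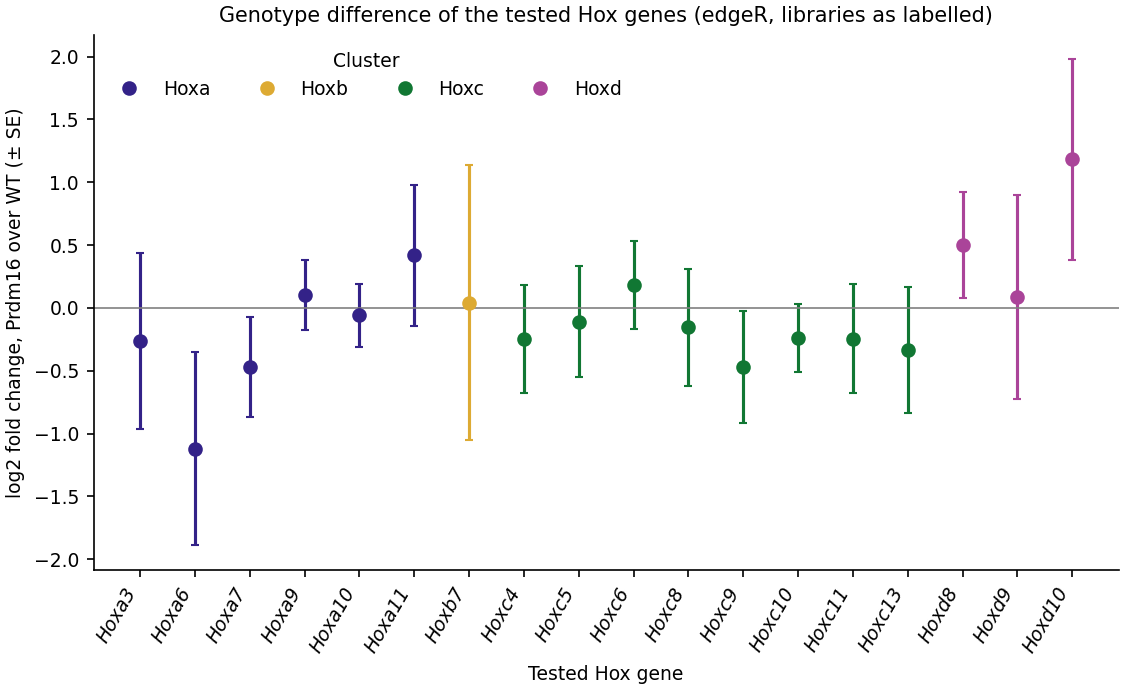
Log2 fold change of Prdm16 over WT for 18 of the 19 tested Hox genes in cluster order, with bars of 1 SE from edgeR (3 libraries labelled WT, 2 labelled Prdm16). Hoxa6 at -1.12 and Hoxd10 at 1.18 lie farthest from 0 and have wide bars.

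In the Hoxa cluster (chr6:52155367-52260880, GRCm38), the genotypes overlapped for the abundant posterior genes. Hoxa10, a patterning gene of the lumbar region and the upper limb segment, had 34.1, 37.1 and 24.9 CPM in WT replicates 1, 2 and 3 and 28.5 and 33.0 CPM in Prdm16 replicates 1 and 2. WT replicate 3 was the lowest library (interval 22 to 28.1 CPM against 32.7 to 41.9 CPM in WT replicate 2) and both Prdm16 values lay inside the WT range. For Hoxa10 the log2 fold change was -0.060 (SE 0.25). Hoxa9, its neighbour and a partner of Meis1, had 15.4, 18.9 and 13.8 CPM in WT and 15.6 and 18.8 CPM in Prdm16, again inside the WT range, with a log2 fold change of 0.10 (SE 0.28). Both signs turned when single libraries were left out: Hoxa10 was at 0.058 without WT replicate 2 and 0.017 without Prdm16 replicate 1, and Hoxa9 at -0.023 without Prdm16 replicate 2. Hoxa7, a gene of thoracic identity, had 7.60, 9.60 and 6.16 CPM in WT and 6.54 and 4.62 CPM in Prdm16, with a log2 fold change of -0.47 (SE 0.40). Prdm16 replicate 2 was the lowest library and Prdm16 replicate 1 lay among the WT values; the log2 fold change was -0.24 without the former, -0.78 without the latter and -0.29 without WT replicate 2. Hoxa6, next to Hoxa7, had 1.44, 1.29 and 1.21 CPM in WT and 0.934 and 0.178 CPM in Prdm16, with a log2 fold change of -1.12 (SE 0.77; edgeR unadjusted p = 0.182, adjusted p = 0.9996). Both Prdm16 libraries were below all WT libraries, but these are 15, 9 and 13 counts in WT against 8 and 1, and the counting interval of Prdm16 replicate 1 (0.403 to 1.84 CPM, exact Poisson, 95%, counting error only) holds every WT value. The log2 fold change of Hoxa6 was -0.48 without Prdm16 replicate 2 and -2.82 without Prdm16 replicate 1.  Hoxa9 to Hoxa13 summed to 53.0, 57.6 and 41.1 CPM in WT and to 46.5 and 56.3 CPM in Prdm16. The genotypes overlapped in this posterior sum. Hoxa3 (0.533 to 2.22 CPM) and Hoxa11 (1.43 to 4.26 CPM) also had overlapping genotypes. Hoxa2, Hoxa4, Hoxa5 and Hoxa13 were too low to test, with at most 9 counts in any library. Of these, Hoxa5 had 9, 8 and 8 counts in WT and 4 and 2 in Prdm16, with both Prdm16 libraries below all WT libraries in CPM.

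In the Hoxc cluster (chr15:102921131-103036856), whose genes pattern the trunk and, at its posterior end, the hindlimb, 8 of 9 genes were tested and 7 had a negative log2 fold change. Hoxc10, a gene known for hindlimb-level expression, had 34.3, 34.5 and 22.7 CPM in WT and 28.4 and 23.3 CPM in Prdm16, with a log2 fold change of -0.24 (SE 0.27). The Prdm16 values lay between WT replicate 3 and the other WT libraries. The value was -0.093 without Prdm16 replicate 2, -0.42 without Prdm16 replicate 1 and -0.41 without WT replicate 3, and also closer to 0 without WT replicate 1 (-0.15) or WT replicate 2 (-0.14). Hoxc9, a gene of the thoracic level that represses forelimb-level Hox genes in motor neurons, had 17.7, 12.8 and 11.3 CPM in WT and 14.4 and 5.51 CPM in Prdm16, with a log2 fold change of -0.47 (SE 0.45). Prdm16 replicate 2 alone was low: its counting interval (3.74 to 7.82 CPM) ended below that of WT replicate 3 (9.37 to 13.5 CPM), and without this library the log2 fold change was 0.056. Hoxc11, another hindlimb-level gene, had 7.12, 4.73 and 4.11 CPM in WT and 4.20 and 4.80 CPM in Prdm16, with a log2 fold change of -0.25 (SE 0.43). WT replicate 1 was the high library, and without it the value was 0.013. Hoxc4, Hoxc5, Hoxc6 and Hoxc8 lay between 3.55 and 9.45 CPM, and the genotypes overlapped for each. Hoxc13, a regulator of hair and nail keratin genes, ranged from 2.33 to 4.71 CPM with overlapping genotypes, and Hoxc12 had 0 or 1 count. Hoxc4 to Hoxc9 summed to 44.1, 43.7 and 32.1 CPM in WT and to 43.1 and 26.5 CPM in Prdm16, and Hoxc10 to Hoxc13 to 46.2, 41.9 and 29.95 CPM in WT and to 35 and 31.3 CPM in Prdm16. WT replicate 3 and Prdm16 replicate 2 were the 2 lowest libraries in both sums, and the genotypes overlapped in both.

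The Hoxd cluster (chr2:74668225-74765142), which patterns the limb from shoulder to digits, was higher in Prdm16 replicate 2 than in the other libraries. Its 9 genes summed to 9.52, 14.6 and 10.1 CPM in WT and to 9.69 and 24.7 CPM in Prdm16. The interval of Prdm16 replicate 2 (20.8 to 29.2 CPM) lay above that of WT replicate 2, the next library (11.9 to 17.8 CPM), and Prdm16 replicate 1 lay among the WT values. Hoxd10, a gene of the lumbar and hindlimb level, had 1.83, 3.44 and 1.03 CPM in WT and 1.40 and 8.17 CPM in Prdm16. Prdm16 replicate 2 was the high library, with an interval of 5.98 to 10.9 CPM against 2.20 to 5.12 CPM in WT replicate 2. Its log2 fold change was 1.18 (SE 0.80) with the smallest p of the 19 genes (edgeR unadjusted p = 0.177, adjusted p = 0.9996), and was -0.54 without Prdm16 replicate 2. Hoxd8, at the anterior side of the active block, had 4.91, 7.45 and 6.44 CPM in WT and 6.07 and 11.7 CPM in Prdm16, with a log2 fold change of 0.50 (SE 0.42), and -0.032 without Prdm16 replicate 2. Hoxd9 had 1.73, 1.00 and 0.746 CPM in WT and 0.467 and 2.13 CPM in Prdm16, so that the 2 Prdm16 libraries were the lowest and the highest. Its log2 fold change was 0.087 (SE 0.81), with -1.28 without Prdm16 replicate 2 and -0.17 without WT replicate 3. Hoxd11, whose span overlaps that of Hoxd10, had 6 to 9 counts and Hoxd13 2 to 6 counts per library. Hoxd3 had 0 to 3 counts, Hoxd4 0 to 4 counts and Hoxd12 0 or 1 count.

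The Hoxb cluster (chr11:96194316-96368254), which is used mainly at head and trunk levels, was low in 4 libraries and not detected in Prdm16 replicate 2. Its 10 genes together had 58, 24 and 46 counts in WT (5.58, 3.44 and 4.29 CPM) and 33 and 0 counts in Prdm16 (3.85 and 0 CPM). At the levels of the other libraries, 19.4 to 31.4 counts would have been seen in Prdm16 replicate 2. A count of 0 allows up to 0.533 CPM (3 counts in this library). This limit is 6.46-fold below the 3.44 CPM of WT replicate 2, the lowest other library, if the counting error of the latter is left out. The exact Poisson interval of WT replicate 2 (2.20 to 5.12 CPM) lay above that of Prdm16 replicate 2 (0 to 0.655 CPM). In each of the other 4 libraries, 7 of the 10 genes had a count. Hoxb7, the 1 tested gene of the cluster, had 1.54, 0.287 and 1.03 CPM in WT and 1.87 and 0 CPM in Prdm16, so the Prdm16 libraries were the highest and the lowest. Its log2 fold change was 0.041 (SE 1.10), and -0.34 without WT replicate 2. Hoxb4, known for its part in blood stem cell growth, had 1.35, 0.287 and 0.840 CPM in WT and 0.584 and 0 CPM in Prdm16. Hoxb2, a hindbrain patterning gene, had 0.577, 0.287 and 0.467 CPM in WT and 0.350 and 0 CPM in Prdm16. Hoxb3, Hoxb5, Hoxb6 and Hoxb9 had 0 to 17 counts per library and Hoxb13 had 1 count in Prdm16 replicate 1 alone. Both Prdm16 libraries lay below all WT libraries for Hoxb5 (1, 4 and 1 counts in WT, 0 and 0 in Prdm16). The same held for Hoxb6 (3, 6 and 12 counts in WT, 1 and 0 in Prdm16), and both genes were too low to test. Neither the Hoxb sum of 0 nor the higher Hoxd sum was shared by the other library labelled Prdm16. The same library differed from the rest in Xist, Y-linked genes, depth and tenocyte markers, as given above, and the part of these in the Hox values was not tested.

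**Figure D3:**
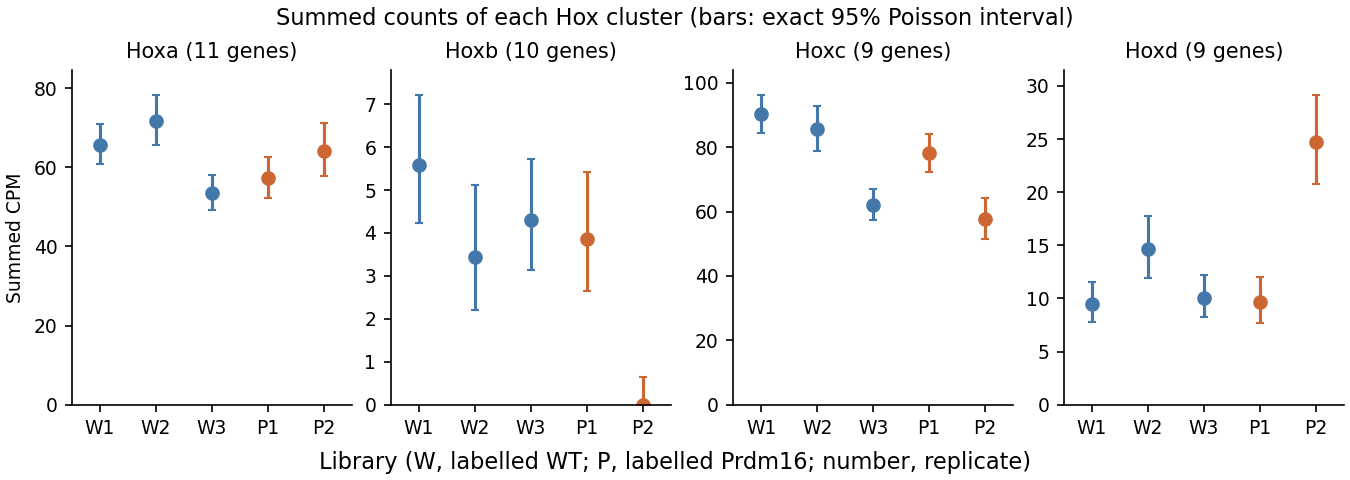
Summed CPM of the genes of each cluster in each RNA library (W, labelled WT; P, labelled Prdm16), with exact 95% Poisson intervals that cover counting error only. Prdm16 replicate 2 is at 0 for Hoxb and at 24.7 CPM for Hoxd, while its Hoxa sum of 64.1 CPM lies within the WT range.

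Prdm16 replicate 2 was the lowest library for 7 of the 19 tested Hox genes (36.8%; Hoxa3, Hoxa6, Hoxa7, Hoxb7, Hoxc4, Hoxc8 and Hoxc9) and the highest for 5 (26.3%; Hoxa11, Hoxd8, Hoxd9 and Hoxd10 among them). Over all tested genes it was the lowest for 19.5% and the highest for 22.8%. WT replicate 3 was the lowest for 7 (36.8%) and the highest for 0 Hox genes, against 23.1% and 18.7% of all tested genes. WT replicate 3 also had the lowest Hox sum (130 CPM), the lowest FAP marker sum and the highest myogenic marker sum, and the part of these in its Hox levels was not tested.

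**Figure D4:**
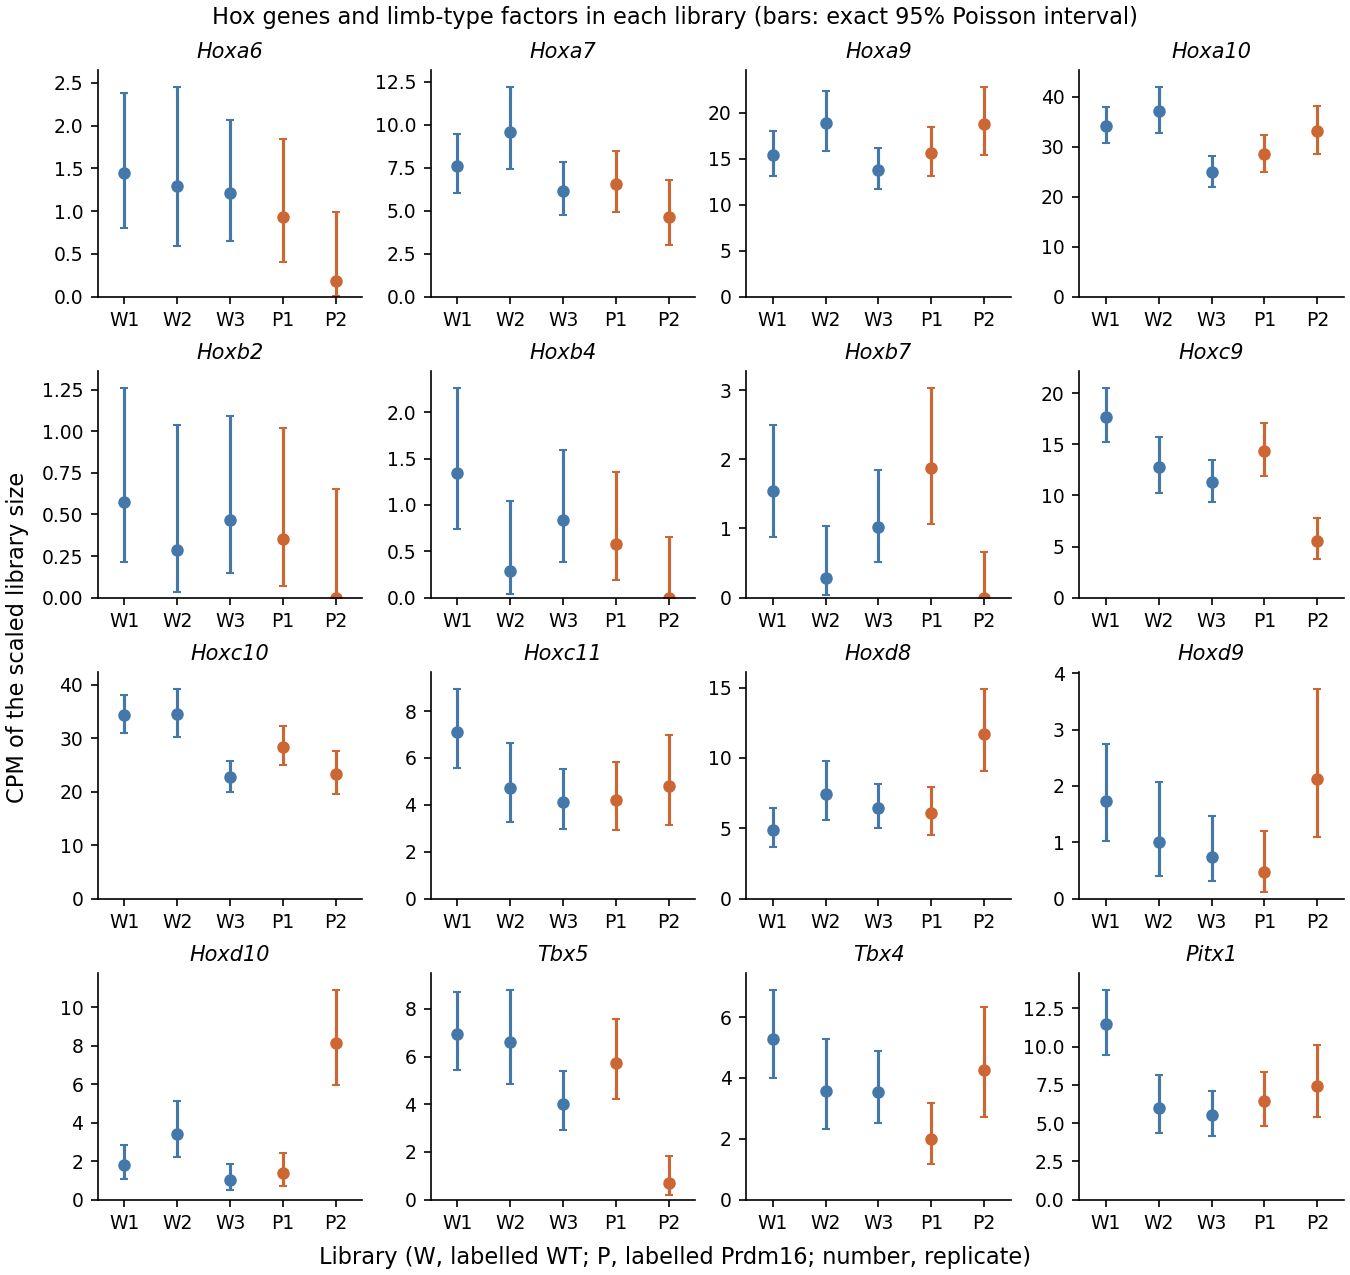
CPM of 13 Hox genes and of the limb-type factors Tbx5, Tbx4 and Pitx1 in each RNA library (W, labelled WT; P, labelled Prdm16), with exact 95% Poisson intervals. Prdm16 replicate 2 is the highest library for Hoxd8, Hoxd9 and Hoxd10 and the lowest for Hoxa6, Hoxa7, Hoxc9 and Tbx5, and it is at 0 for Hoxb2, Hoxb4 and Hoxb7.

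The authors' deposited table compares, by the match of its p-values given above, WT replicate 3 and Prdm16 replicate 2 with the other 3 libraries, and so is not the labelled contrast. In the authors' deposited table, 36 Hox genes had a p-value and 8 an adjusted p. Of these 8, 0 were called, against 7.55% of the genes with an adjusted p. The largest adjusted p of a call was 0.0995, but a gene at 0.0329 was not called, so a call took more than this value. The smallest unadjusted p-values there were those of Hoxc9 (0.0449) and Hoxc10 (0.0726). Hoxc9 had a log2 fold change of -0.32 and an adjusted p of 0.486, and Hoxc10 had -0.28 and 0.976. Adjusted p did not follow the order of p there: Hoxa7, with a p of 0.2095, had an adjusted p of 0.628. Hoxd10 had a log2 fold change of 0.09 and Hoxd8 one of 0.14 in the authors' deposited table. No Hox gene exceeded 0.32 in size there, and Hoxa2, with a mean normalized signal of 0.91, had an SE of 0.24. Whether these fold changes were shrunk toward 0 was not given. Their sizes are therefore not comparable with those of edgeR.

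Transcripts of the factors that set limb type were counted in all 5 libraries, those of the forelimb and the hindlimb alike. Tbx5, the forelimb factor, had 6.93, 6.59 and 4.01 CPM in WT and 5.72 and 0.710 CPM in Prdm16. Prdm16 replicate 2 had 4 counts of Tbx5 against 43 to 72 in the other libraries, the same library that lacked Hoxb counts and had the highest Hoxd sum. The log2 fold change of Tbx5 was -0.81 (SE 0.73; edgeR unadjusted p = 0.301, adjusted p = 0.9996). It was -0.016 without Prdm16 replicate 2 and -3.04 without Prdm16 replicate 1. Tbx4, the hindlimb factor, had 5.29, 3.58 and 3.55 CPM in WT and 1.98 and 4.26 CPM in Prdm16, with a log2 fold change of -0.43 (SE 0.51), and 0.012 without Prdm16 replicate 1. Pitx1, which turns on Tbx4 in the hindlimb, had 11.4, 6.02 and 5.51 CPM in WT and 6.42 and 7.46 CPM in Prdm16, with a log2 fold change of -0.15 (SE 0.44), and 0.25 without WT replicate 1. The genotypes overlapped for all 3 factors. Of the 31 limb type and patterning factors listed, 24 were tested, 7 with a positive and 17 with a negative log2 fold change (median -0.24) and 0 called. Shh, the posterior limb signal, and Sall4 had no count in any library. The smallest p-values of the list were those of Osr1 (-0.44), Msx1 (-1.48), Tbx18 (-0.52) and Emx2 (-0.60), none past the threshold.

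Cofactors and chromatin regulators of Hox genes were also tested, with 0 called in each list. The TALE homeodomain proteins, which bind DNA together with Hox proteins, were all tested (9 of 9), 3 with positive and 6 with negative values. Meis1 had 36.4, 51.5 and 27.2 CPM in WT and 48.3 and 26.5 CPM in Prdm16 (log2 fold change -0.028, SE 0.35). Its genotypes overlapped, and Meis3 had the smallest p of the list, at -1.27. Of 24 Polycomb genes, 23 were tested, with 9 positive and 14 negative values. The Prdm16 libraries lay above all WT libraries for 1 and below them for 4, against 8.83% and 8.96% of all tested genes. By edgeR, 1 of the 23 had an unadjusted p under 0.05, against 2.48% of all tested genes. That gene, Phc2, a subunit of Polycomb repressive complex 1, had 24.8, 22.4 and 25 CPM in WT and 26.4 and 64.6 CPM in Prdm16 (log2 fold change 0.91, SE 0.36; edgeR unadjusted p = 0.0336, adjusted p = 0.9996). Prdm16 replicate 2 was again the library apart, and without it the log2 fold change of Phc2 was 0.14. Ezh2, the H3K27 methyltransferase, was at -0.47, Ring1 at -0.80 and Phc1 at -0.46. Of the 14 trithorax genes and H3K27 demethylases, 9 had positive and 5 negative values, among them Kmt2a, the methyltransferase that keeps Hox genes on, at 0.29, and the demethylase Kdm6b at -0.49. Of 19 genes of retinoic acid and Cdx, inputs that switch Hox genes on in the embryo, 15 were tested, 6 with positive and 9 with negative values, and Cdx2 and Cdx4 had no count. Rara, a retinoic acid receptor, had 43.9, 25.8 and 23.3 CPM in WT and 16.6 and 18.3 CPM in Prdm16 (log2 fold change -0.83, SE 0.33; edgeR unadjusted p = 0.0350, adjusted p = 0.9996). Rara was 1 of 2 genes of this list with both Prdm16 libraries below all WT libraries, against 8.96% of all tested genes. Of the 15, only Rara had an unadjusted p under 0.05 by edgeR, against 2.48% of all tested genes.

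The clusters also hold noncoding genes, of which 5 of 16 in the table were tested. Hoxa11os, antisense to Hoxa11, had 4.33, 6.02 and 7.46 CPM in WT and 6.54 and 11.4 CPM in Prdm16, with a log2 fold change of 0.58 (SE 0.42). Prdm16 replicate 2 was the highest library, as it was for Hoxa11. Hoxd3os1 was at 0.40, Hotair at -0.28 and Hotairm1 at -0.23. Whether counting used strand was not given in the sources used here, and 20 of the 39 Hox genes (10 of the 19 tested) share part of their span with another gene, so that reads from the shared stretches, such as those of Hoxa11 and Hoxa11os, of Hoxa3 and 8 neighbours, and of Hoxd10 and Hoxd11, may have gone to either gene or to none. The microRNA genes of the clusters had 0 counts (Mir10a, Mir10b, Mir196a-1 and Mir196b) or 2 counts in all (Mir196a-2), and Mir615, inside Hoxc5, had 1 count in WT replicate 1 and 2 in Prdm16 replicate 2. These were polyadenylated RNA libraries, which do not capture mature microRNAs. The RefSeq sequences of miR-10 and miR-196, with the seed (bases 2 to 8) in capitals, form 2 families, each shared by different clusters.
mmu-miR-10a-5p: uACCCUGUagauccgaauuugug
mmu-miR-10b-5p: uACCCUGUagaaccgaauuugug
mmu-miR-196a-5p: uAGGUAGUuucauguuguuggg
mmu-miR-196b-5p: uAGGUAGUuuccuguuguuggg
The first pair lies in Hoxb and Hoxd and shares the seed ACCCUGU, and the second lies in Hoxb and Hoxc (miR-196a) and in Hoxa (miR-196b) and shares AGGUAGU.

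The genes flanking the clusters were taken as the nearest tested genes, up to 3 on each side within 500 kb. Of these 20 genes, 1 lay above and 8 below the WT range, where 8.83% and 8.96% of all tested genes did. An unadjusted p under 0.05 was found for 2 of the 20, against 2.48% of all tested genes, and 0 passed after adjustment. Mtx2, a mitochondrial import gene 60.67 kb beyond Hoxd, had 99.2, 41.6 and 65.4 CPM in WT and 36.8 and 30.2 CPM in Prdm16 (log2 fold change -1.04, SE 0.36; edgeR unadjusted p = 0.0215, adjusted p = 0.9996). Atp5g2, a gene of the ATP synthase near Hoxc, was at -0.73 (SE 0.31; edgeR unadjusted p = 0.0467). Both Prdm16 libraries were low for these 2 genes, whereas the Hoxd sum beside Mtx2 was high in 1 of them. Lnpk, on the other side of Hoxd, was at 0.23 and Skap2, beside Hoxa, at -0.18.

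None of the 39 Hox genes overlapped an H3K9me2 or LaminB1 domain in any of the 8 libraries. Domains are broad regions that the authors called in each library, with the shortest at 72.0 to 90.0 kb for H3K9me2 and at 56.0 and 72.0 kb for LaminB1, so smaller patches of either mark inside a cluster would not be listed. In the deposited lists, 18.9% of protein-coding genes overlapped an H3K9me2 domain and 16.2% a LaminB1 domain in at least 1 library. With at least 0.5 of the gene body covered, the shares were 17.3% and 15.3%. Covered length was 0 bases of each of the 4 clusters in the 3 WT and 3 Prdm16 H3K9me2 libraries and in the 1 LaminB1 library of each genotype, although total cover ranged from 574.6 to 1016.8 Mb and was 693.4 and 330.6 Mb for LaminB1. With every library at 0 there was no difference to test, and Hoxb1, Hoxb8 and Hoxd1, which had no count, were as free of domains as the abundant Hoxa10 and Hoxc10.

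The distance to the nearest domain differed between clusters. For Hoxa the nearest H3K9me2 domain lay 2046 to 2334 kb away over the 6 libraries, and for Hoxb 2339 to 2396 kb. For Hoxc it lay 954 to 4554 kb away, with a median of 987 kb. Hoxd had the closest domain, at 163 kb in WT replicate 2, with a median of 372 kb and a maximum of 3310 kb. The median protein-coding gene lay 427.2 to 947.2 kb from a domain, depending on the library. For LaminB1 the nearest domain lay 3775 kb (WT) and 4815 kb (Prdm16) from Hoxa, 519 and 679 kb from Hoxc, and between 2358 and 2378 kb from Hoxb and 6015 and 6023 kb from Hoxd. At Hoxd, the longest H3K9me2 distance was that of WT replicate 3.

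**Figure D5:**
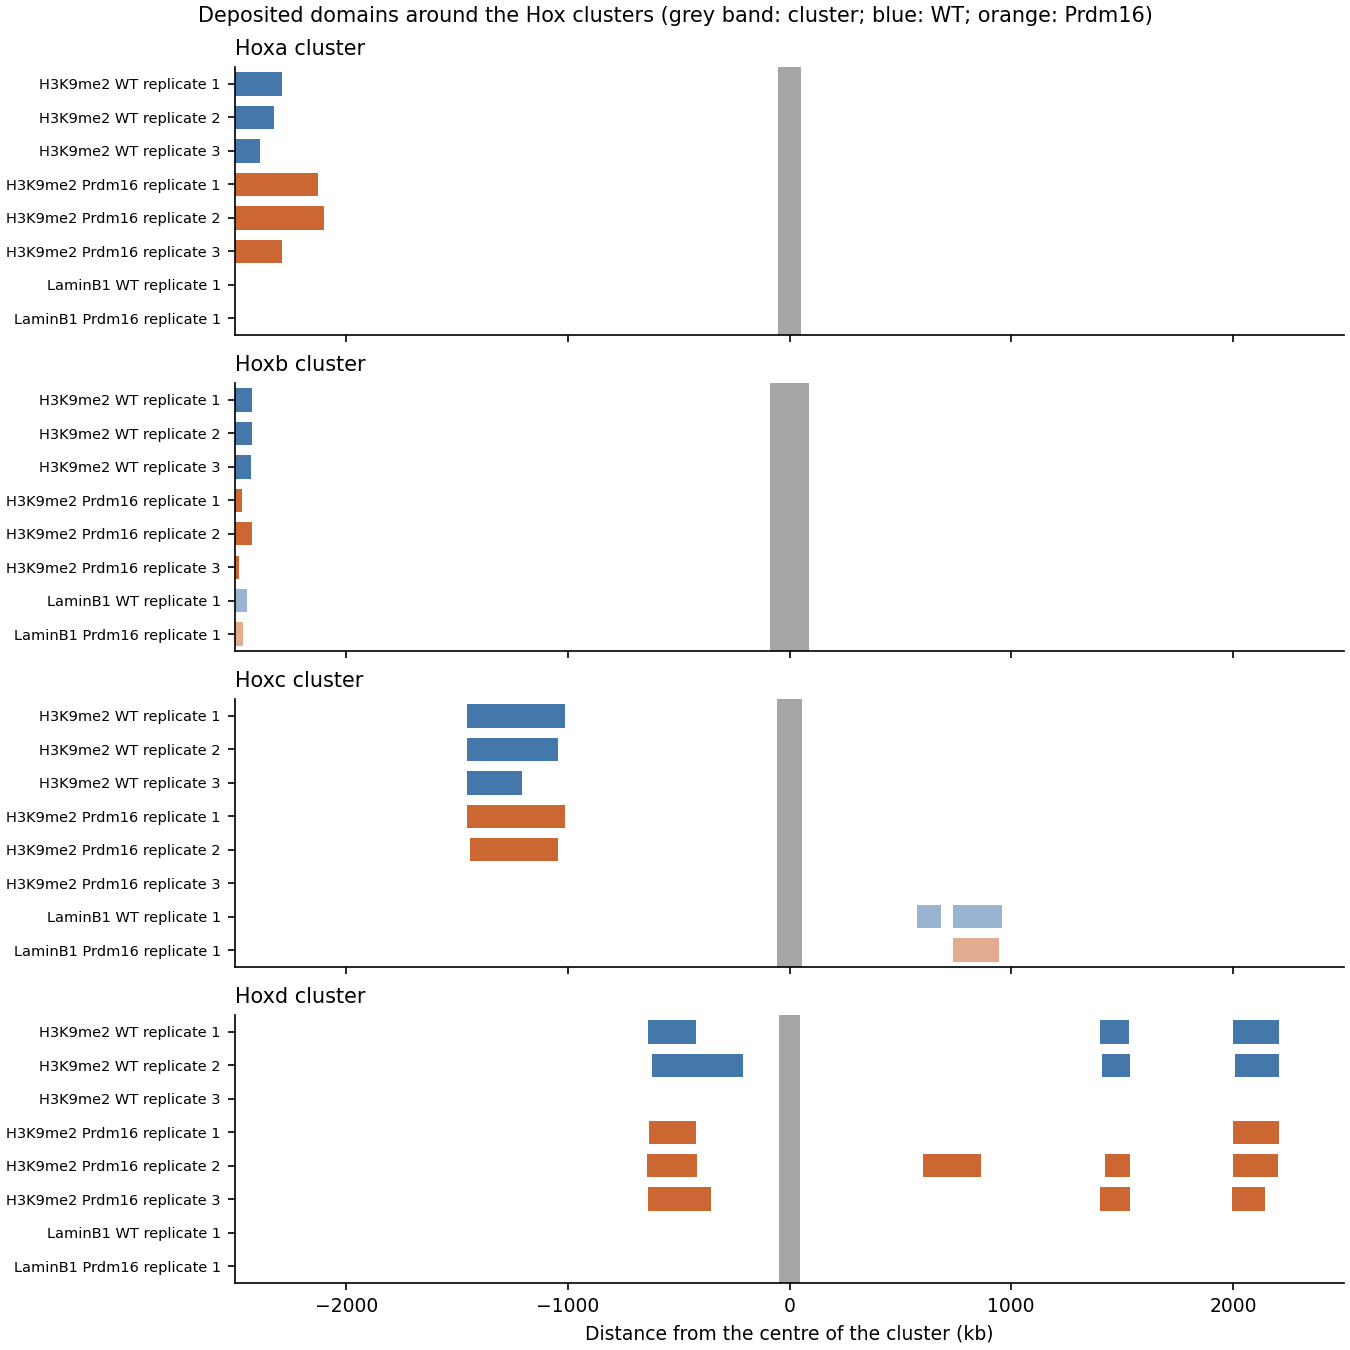
Deposited H3K9me2 and LaminB1 domains around each Hox cluster, as distance from the centre of the cluster in kb, 1 row per library (blue, labelled WT; orange, labelled Prdm16; paler for LaminB1). The grey band is the cluster, which no domain touches in any of the 8 libraries.

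Of the 31 limb type and patterning factors outside the clusters, 4 overlapped an H3K9me2 domain in at least 1 library and 2 a LaminB1 domain, against 18.9% and 16.2% of protein-coding genes. Sall1, a zinc finger gene of limb and kidney, was fully covered by H3K9me2 in 5 of 6 libraries and by LaminB1 in both. Tbx5 was covered over 49.8% and 39.7% of its body in WT replicates 1 and 2 and 0% in WT replicate 3, and over 39.7% in Prdm16 replicate 1 and 0% in Prdm16 replicates 2 and 3. The genotypes overlapped. Fgf10, the signal that starts limb outgrowth, was fully covered in Prdm16 replicates 2 and 3 and free of H3K9me2 domains in the other 4 libraries. Alx1, a homeobox gene of the skull and limb mesenchyme, was covered over 100%, 14.5% and 100% by H3K9me2 in WT replicates 1, 2 and 3 and over 0%, 100% and 0% in Prdm16, and over 100% (WT) and 0% (Prdm16) by LaminB1. No direction was common to these 4 genes.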

How the data were processed

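RNA-seq by SMART-seq2 from polyadenylated RNA was deposited as raw counts per gene for 5 libraries, per the labels (5839587 to 10657791 counts). The authors also deposited a normalized signal (counts divided by 1 size factor per library), which was not used, and a comparison table with a mean normalized signal, log2 fold changes and p-values. The submitters' processing notes list the builds GRCm38, mm10 and dm6 and, as tools, featureCounts, DESeq2 1.20, STAR 2.7 and Bowtie 1.2.2. The annotation, the domain caller and the role of each build were not given in the sources used here. Each deposited domain list held positions and the authors' score, used only in an alternative, and its read depth is unknown.

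The 39 members and all gene lists were chosen with earlier results of these data known. Counts were fitted in R 4.3.3 with edgeR 4.0.16 (filterByExpr defaults, TMM, robust quasi-likelihood, two-sided, 3 WT against 2 Prdm16 libraries, Benjamini-Hochberg over 15240 genes, threshold 0.05). Genes given in every library were the 3 with the highest CPM per kb in each cluster and the 6 with the smallest p. The rule asked for exon length, which was not given, so the span from the RefSeq annotation of GRCm38.p6 was used. For other lists up to 4 genes by smallest p and a fixed few (Tbx5, Tbx4, Pitx1, Meis1, Ezh2, Kmt2a) were named, and not all of these are printed. Some items are not reported here. The limb genes given for domain cover, and Hoxd13 and others described by range, were picked after their values were seen or to account for every member. Alternatives were DESeq2 1.42.0, limma-voom 3.58.1, DESeq2 size factors, no filter, a replicate block and leaving out libraries. Domains were compared with gene spans in Python 3.11.15.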

Additional observations from a re-analysis of the deposited data

How the results depend on the processing

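No Hox gene was called in any alternative of the test that kept both Prdm16 libraries. Calls are not given for fits with 1 Prdm16 library left, since the spread of that group could not be measured there. Over all genes, calls numbered 0 of 15240 with DESeq2 size factors or limma-voom and 1 of 15240 with the replicate block. They numbered 1 of 32193 by DESeq2 and 25 of 32193 without the filter. Without WT replicate 1, 2 or 3 they numbered 0 of 14784, 0 of 15170 and 0 of 14655. By edgeR, an unadjusted p under 0.05 was found for Hoxb6 without the filter (1 of 36 Hox genes, at -3.21). The share of all genes at that p was not counted there. Without Prdm16 replicate 1, Hoxd10 was at 1.95 and Hoxc9 at -1.36. Without both WT replicate 3 and Prdm16 replicate 1 they were at 1.63 and -1.49. Non-overlapping Hox genes numbered 0 of 10 with a mean of at least 5 CPM, against 17.9% of all genes at that level. When 1 WT library was left out, they numbered 1 of 16 without replicate 1 (29.2% of all genes), 2 of 19 without replicate 2 (35.3%) and 3 of 17 without replicate 3 (38.0%). They numbered 16 of 23 without Prdm16 replicate 1 (48.2%) and 10 of 23 without Prdm16 replicate 2 (34.0%). They numbered 15 of 19 without WT replicate 3 and Prdm16 replicate 1 (68.3%). Such counts grow for all genes because fewer libraries overlap less.

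Of 193 alternatives for the log2 fold changes of 18 named genes, 170 kept the sign, 23 (12 genes) did not and 0 passed (smallest adjusted p 0.216). The sign turned for Hoxb7 in DESeq2 (-0.016), limma-voom (-0.92) and without WT replicate 3 and Prdm16 replicate 1 (-5.90), for Hoxd9 in limma-voom (-0.23) and for Meis1 in limma-voom (0.020). With replicate numbers as a block, 0 Hox genes were called and Hoxb7 (-0.17) and Hoxd9 (-0.33) turned sign. The labels do not say whether the numbers pair the samples. Deviations from the genotype mean correlated at 0.212 for the replicates numbered 1 and -0.212 for those numbered 2. With 2 Prdm16 libraries, the deviations of 1 are the negative of the other's, so these values cannot decide a pairing. The cause of these turns was not tested.

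Leaving out libraries moved the values across 0 for Hoxa9 (-0.023 to 0.24), Hoxa10 (-0.21 to 0.058), Hoxb7 (-6.07 without Prdm16 replicate 1 to 0.94, with -0.34 without WT replicate 2), Hoxc9 (-1.49 to 0.056), Hoxc11 (-0.40 to 0.013), Hoxd8 (-0.032 to 0.91), Hoxd9 (-1.28 to 0.84, with -0.17 without WT replicate 3), Hoxd10 (-0.54 to 1.95), Tbx4 (-1.05 to 0.012), Pitx1 (-0.34 to 0.25), Meis1 (-0.75 to 0.35) and Kmt2a (-0.0022 to 0.52). The -5.90 and -6.07 of Hoxb7 compare WT with a single library at 0 counts and are set by the fit's prior count, not a measured fold: a count of 0 there allows up to 0.533 CPM. With 1 Prdm16 library left, that library is assumed to vary like the WT libraries. Domain cover of the clusters was 0 with 50 kb added on each side, with domains at or above the median score and without any 1 library. By CPM without division by length, 10 of the 12 most abundant genes by cluster were the same. Depth limits the 20 untested genes, which had at most 17 counts in a library, most of the Hoxb cluster among them.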
